A study of Mus musculus with 2 samples.

Results

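The genes described here carry iron into the mitochondrion, build heme there and in the cytosol, and break heme down. They are 9 of the 14366 genes in the deposited tables, chosen by name: Slc25a37 and Slc25a28 (mitochondrial iron import), Alas1, Uros, Urod, Cpox, Ppox and Fech (heme synthesis) and Hmox1 (heme degradation). All 9 had rows in both tables, and their levels were compared between cells with and without transcripts of Gata1 or Klf1, and between vehicle and the iron chelator DFO. Gata1 and Klf1 encode transcription factors of the erythroid lineage, and Gata1 also acts in megakaryocytes.

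The study sorted hematopoietic stem cells (HSC) from wildtype C57/B6 mice aged 6 to 8 weeks, as lineage-negative, Sca-1+, c-Kit+, CD150+ and CD48- marrow cells. Marrow of 8 mice was pooled, so animals are not replicates. Sorted cells were kept for 48 h in medium with cytokines that included SCF at 100 ng/ml, with water as vehicle or with 10 µM DFO. Both groups shared the sort, the culture medium and the culture time, and each gave 1 single-cell RNA library from 20000 loaded live cells. The vehicle library holds 8708 cells and 260938938 molecules, with a median of 27805.5 molecules per cell. The DFO library holds 9852 cells and 284326017 molecules, with a median of 27114. With 1 library per group no test was possible. The 95% intervals given with each value (exact Poisson for levels, Clopper-Pearson for shares) cover counting error only and leave out variation between cultures.

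Heme is made from glycine and succinyl-CoA by a chain of enzymes that starts and ends in mitochondria and passes through the cytosol. The last step puts iron into protoporphyrin, so the pathway needs both a supply of mitochondrial iron and the porphyrin ring. Developing red cells make most of the body's heme, while other cells need it for cytochromes and other heme proteins. Heme oxygenase opens the ring and releases the iron.

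Of the 13 erythroid markers in the tables, 6 reached a mean level of 5 per 1000000 molecules (CPM): Gata1, Epor, Car2, Aqp1, Hbb-bt and Tfr2. Car2, a carbonic anhydrase gene, stood at 340.7 CPM with vehicle and 352.2 CPM with DFO. The alpha globin gene Hba-a1 stood at 0.184 CPM with vehicle and at 0.116 CPM with DFO. The beta globin gene Hbb-bt was at 518.2 CPM under vehicle and 488.7 CPM under DFO. It did not follow the class genes: in vehicle it stood at 233.8 CPM in cells with Gata1 or Klf1 and at 603.6 CPM in the others. Another beta globin gene, Hbb-bs, was under the 5 CPM minimum and went the other way in vehicle, at 12.3 against 3.58 CPM. In DFO it was at 2.61 against 2.85 CPM. Epor was higher in vehicle cells with Gata1 or Klf1, at 16.8 against 5.84 CPM, and so was Aqp1, at 24.8 against 5.985 CPM. Car2 was at 447.8 against 347.7 CPM and Tfr2 at 21.3 against 21.5 CPM. Alas2, the erythroid form of the first synthesis enzyme, had no row in the deposited tables, so its level could not be read.

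Vehicle and DFO were compared first, by molecules summed over all cells of a library. Differences are log2 ratios of CPM + 1, and a difference of 0.25 (1.19-fold) or more is called a shift. By that size rule 0 of the 9 genes shifted, against 3.97% of the 8886 genes at a mean of 5 CPM or more. Uros was the only one of the 9 under that mean, so 8 of 9 are comparable with this background. The median difference of those 8 was -0.07, beside 0.02 over all 8886 genes. Among the 9, the small differences with separate counting intervals were a higher level of Slc25a37 and lower levels of Urod, Cpox, Ppox and Hmox1 in DFO.

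Slc25a37, mitoferrin 1, moves iron across the inner mitochondrial membrane and is the main importer in erythroid cells. It stood at 20.7 CPM (20.1 to 21.2) in vehicle and 23.1 CPM (22.5 to 23.7) in DFO, a difference of 0.15. The intervals did not overlap, and the difference lay between 0.11 and 0.18 over all 12 alternatives. It ranked at the 92.2 percentile of the expressed genes. Slc25a28, mitoferrin 2, does the same work in many other tissues. Its level was 18.4 CPM (17.9 to 19.0) in vehicle and 18.8 CPM (18.3 to 19.3) in DFO. The intervals overlapped, and the sign of the difference changed among the alternatives.

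Of the synthesis enzymes, Alas1 (the first step, present in most tissues) was at 9.80 CPM (9.42 to 10.2) in vehicle and 9.86 CPM (9.50 to 10.2) in DFO. Uros, which closes the porphyrin ring, was at 3.19 CPM (2.97 to 3.41) and 3.25 CPM (3.04 to 3.47). For both genes the 2 libraries overlapped, and the sign of the difference changed among the alternatives.

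The next enzymes in the chain were lower in DFO. Urod, which trims the side chains of uroporphyrinogen, was at 51.7 CPM (50.9 to 52.6) in vehicle and 48.2 CPM (47.4 to 49.0) in DFO, a difference of -0.10. Cpox, the coproporphyrinogen oxidase, was at 31.6 CPM (30.9 to 32.3) and 28.8 CPM (28.2 to 29.5), a difference of -0.13. Ppox, which makes protoporphyrin, was at 8.33 CPM (7.99 to 8.69) and 7.33 CPM (7.02 to 7.65), a difference of -0.16. None of these pairs of intervals overlapped, and each gene kept its sign in all 12 alternatives. The Cpox difference was -0.04 when the clusters described further on were given equal shares in both libraries. Megakaryocyte markers were also lower in DFO, 8 of 10 by the size rule with a median of -0.75, and their part in the Cpox difference was not tested. Fech, ferrochelatase, which inserts the iron, was at 17.0 CPM (16.5 to 17.5) in vehicle and 16.6 CPM (16.1 to 17.1) in DFO, with overlapping intervals.

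Hmox1, the inducible heme oxygenase, came nearest to the size rule. It was at 7.12 CPM (6.80 to 7.45) in vehicle and 5.89 CPM (5.61 to 6.18) in DFO, a difference of -0.24, and ranked at the 2.89 percentile. The intervals did not overlap. The difference ran from -0.11 to -0.40 over the alternatives, and it was past -0.25 in 7 of 12.

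**Figure D1:**
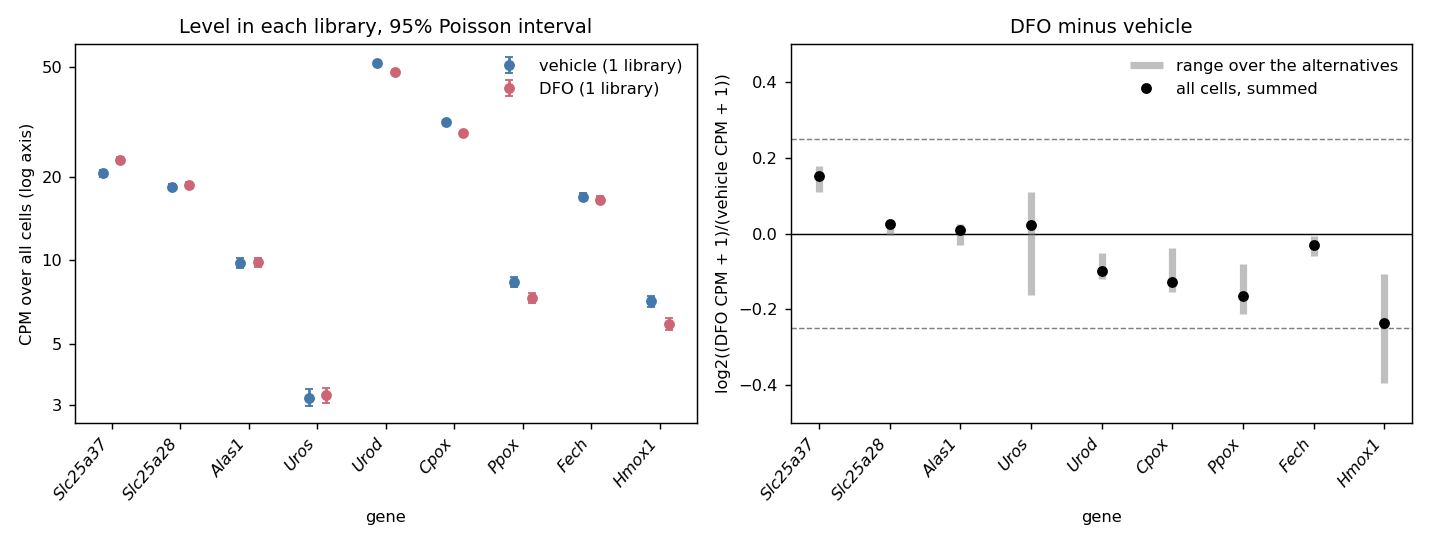
Left, level of each gene (CPM, log axis) in the vehicle and the DFO library, 1 library each, with exact 95% Poisson intervals. Right, DFO minus vehicle on the log2 scale (points) and its range over the alternatives (grey bars), with dashed lines at 0.25 in each direction: Slc25a37 lies highest at 0.15 and Hmox1 lowest at -0.24.

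For the comparison with Gata1 and Klf1, each cell was thinned to 10000 molecules, since a deeper cell shows a rare transcript more often. A cell with at least 1 molecule of either gene was called positive. In vehicle 1490 of 8357 thinned cells were positive, 17.8% (17.0 to 18.7). In DFO 1110 of 9419 were positive, 11.8% (11.1 to 12.5). Without thinning the shares were 31.5% and 21.9%. Most positive cells were called by Gata1: 1353 vehicle and 996 DFO cells had a Gata1 molecule, and 249 and 169 had a Klf1 molecule. In the neutrophil-monocyte-like cluster, which should lack both genes, 1.13% of vehicle and 1.74% of DFO cells were positive, at median depths of 31008 and 30018 molecules. The positive cells' own median depths were 28263 and 28363 molecules.

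Of the 9 genes, Cpox and Ppox were higher and Hmox1 was lower in positive than in other cells by 0.25 or more in both libraries. Over all 8885 genes, 6.63% were higher in both libraries and 9.05% were lower in both. The median over the 8 genes above the minimum was -0.04 in vehicle and 0.04 in DFO, beside -0.01 and 0.01 over all genes. With levels taken from all molecules of the same cells, Cpox alone was past the rule in both libraries.

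Cpox differed most on the positive side. In vehicle it stood at 45.1 CPM (41.8 to 48.6) in positive cells and 28.0 CPM (26.8 to 29.3) in the others, a difference of 0.67. In DFO it stood at 38.1 CPM (34.6 to 41.9) and 26.8 CPM (25.7 to 28.0), a difference of 0.49. The classes did not overlap in either library, and these differences ranked at the 97.8 and 97.0 percentiles of expressed genes. From all molecules they were 0.62 and 0.52. With equal cluster shares in both classes they were 0.21 and 0.13. With at least 2 class molecules asked for, they were 0.60 and 0.248, and Cpox missed the rule in DFO.

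In vehicle, the Cpox intervals of cells with 1, 2 and 3 or more class molecules overlapped. Its level was 28.0 CPM in cells with 0 molecules of the class genes, 44.6 CPM (40.4 to 49.0) with 1, 46.8 CPM (40.2 to 54.3) with 2 and 44.2 CPM (34.3 to 56.0) with 3 or more. All 3 groups with a class molecule lay above the cells with 0. In DFO the cells with 1 molecule had 39.7 CPM (35.5 to 44.2), those with 2 had 30.3 CPM (23.4 to 38.5), and those with 3 or more had 45.0 CPM (29.7 to 65.5). The 218 DFO cells with 2 molecules thus overlapped both their neighbours and the cells with 0.

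The sequence before the Cpox start holds matches to the GATA motif. RefSeq promoter entries (GRCm38.p6) were searched for 6 of the 9 genes. Slc25a37 and Hmox1 had no entry, and Fech was left out of the search. The 250 bases before each listed start site were searched on both strands for a GATA and a KLF motif. The GATA motif was spelled AGATAA or AGATAG or TGATAA or TGATAG, and the KLF motif CCNCNCCC. Of 32851 promoters, 26.5% held the first and 45.9% the second. The sequences below are printed because Cpox and Ppox differed between the classes in the same direction and Slc25a28 did not, with matches in capitals.
Cpox: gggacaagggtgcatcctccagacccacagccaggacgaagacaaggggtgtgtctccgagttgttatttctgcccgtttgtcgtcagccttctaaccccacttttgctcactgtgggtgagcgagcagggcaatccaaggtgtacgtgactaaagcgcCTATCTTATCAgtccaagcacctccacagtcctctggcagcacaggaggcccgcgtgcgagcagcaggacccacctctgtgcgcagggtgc
Ppox: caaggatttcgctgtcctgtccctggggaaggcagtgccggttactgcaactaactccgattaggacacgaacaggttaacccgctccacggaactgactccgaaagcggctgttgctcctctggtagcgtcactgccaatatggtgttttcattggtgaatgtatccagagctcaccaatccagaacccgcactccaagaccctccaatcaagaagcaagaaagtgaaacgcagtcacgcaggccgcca
Slc25a28: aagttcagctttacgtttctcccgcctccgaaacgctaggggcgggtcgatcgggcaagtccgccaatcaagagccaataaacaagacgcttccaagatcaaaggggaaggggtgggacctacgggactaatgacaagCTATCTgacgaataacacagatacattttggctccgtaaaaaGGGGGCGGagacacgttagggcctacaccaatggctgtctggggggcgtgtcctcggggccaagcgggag
The Cpox stretch is chr16:58669958-58670207 on the plus strand and holds 2 GATA matches on the opposite strand that share a base, 91 to 86 and 86 to 81 bases before the start. It holds no KLF match. The Ppox stretch, chr1:171281187-171281436 on the minus strand, holds neither motif. The Slc25a28 stretch, chr19:43674882-43675131 on the minus strand, holds 1 match to each. Of the promoters not printed, Urod held neither motif and Alas1 held KLF matches only. Uros held a KLF match before its first start site and 2 GATA matches before its second. These letters describe the windows and do not show that a factor binds.

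Ppox stood at 10.1 CPM (8.52 to 11.8) in positive and 8.16 CPM (7.49 to 8.86) in other vehicle cells, a difference of 0.27. In DFO it stood at 9.28 CPM (7.57 to 11.3) and 7.16 CPM (6.60 to 7.76), a difference of 0.33. The thinned intervals overlapped in both libraries. From all molecules of the same cells they did not overlap, and the differences were 0.24 and 0.26. With equal cluster shares they were 0.01 and 0.17, and another random draw of the thinning gave 0.44 in vehicle and 0.07 in DFO.

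Urod leaned the same way. It stood at 60.3 CPM (56.5 to 64.4) in positive and 49.8 CPM (48.1 to 51.4) in other vehicle cells, a difference of 0.27 with separate intervals. In DFO it stood at 54.1 CPM (49.8 to 58.6) and 48.7 CPM (47.3 to 50.3), a difference of 0.15 with overlapping intervals. From all molecules the intervals were separate in both libraries, at 0.23 and 0.11. Alas1, Uros and Fech differed by -0.16, 0.16 and 0.09 in vehicle and by -0.04, 0.01 and 0.07 in DFO, and all their intervals overlapped.

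The importers did not share the direction of Cpox. Slc25a37 stood at 18.3 CPM (16.2 to 20.6) in positive and 21.04 CPM (19.97 to 22.2) in other vehicle cells, and at 17.3 CPM (14.9 to 19.9) and 23.9 CPM (22.9 to 25.0) in DFO. The differences were -0.19 and -0.45, and the intervals were separate in DFO only. From all molecules they were -0.19 and -0.24 with separate intervals in both. Slc25a28 differed by -0.18 in vehicle and 0.02 in DFO, with overlapping intervals.

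Hmox1 was lower in positive cells. In vehicle it stood at 4.09 CPM (3.13 to 5.26) in positive and 8.77 CPM (8.08 to 9.50) in other cells, a difference of -0.94 with separate intervals. In DFO it stood at 4.69 CPM (3.50 to 6.14) and 6.11 CPM (5.59 to 6.67), a difference of -0.32 with overlapping intervals. These positive values rest on 61 and 52 molecules, and another random draw of the thinning gave -0.48 in vehicle. From all molecules the differences were -0.65 and -0.13, with separate intervals in vehicle only. With equal cluster shares they were -0.20 and -0.14.

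**Figure D2:**
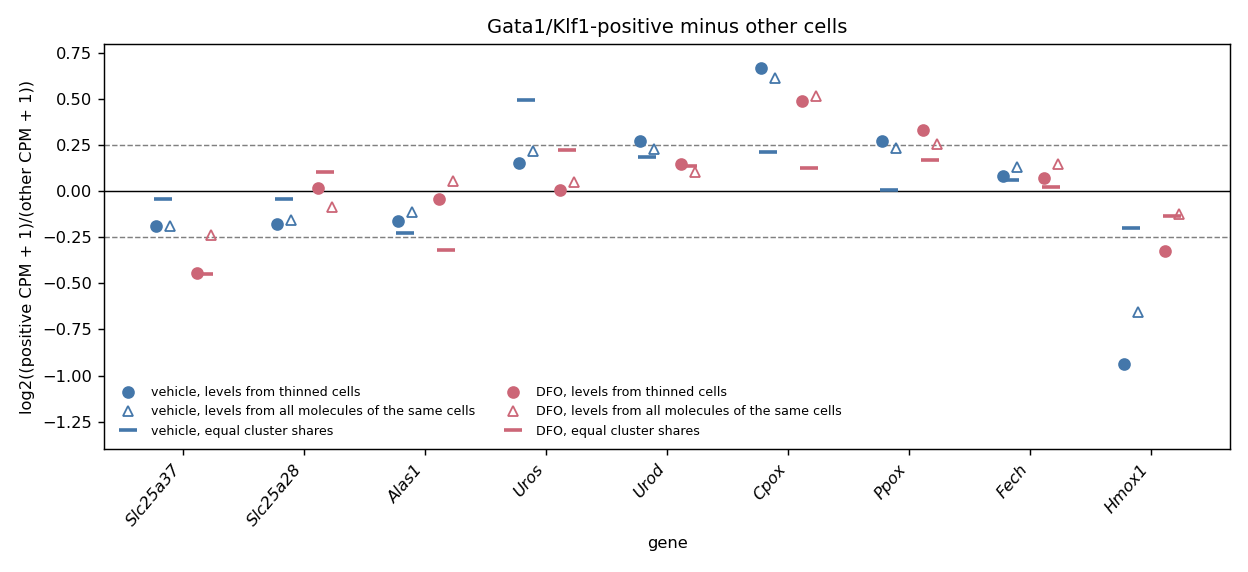
Positive minus other cells on the log2 scale for each gene and library (vehicle blue, DFO red), from thinned cells (circles), from all molecules of the same cells (triangles) and with clusters given equal shares (bars). Dashed lines mark 0.25 in each direction: Cpox lies above the upper line in both libraries for circles and triangles and under it for the bars.

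Of the positive cells, 40.1% in vehicle and 33.7% in DFO lay in the megakaryocyte-like cluster described next, and 36.8% and 36.2% in the larger of a pair of erythroid-like clusters. Gata1 and Klf1 are among the markers that name erythroid-like clusters, so the share of positive cells there is not independent of the name. All 10 megakaryocyte markers at 5 CPM or more were higher in positive cells by the size rule in both libraries, with a median difference of 1.61 in vehicle and 1.54 in DFO. Their summed level with the markers under the minimum was 3937 CPM in positive and 1342 CPM in other vehicle cells, and 2285 and 828.4 CPM under DFO. The 5 erythroid markers at the minimum other than the class gene Gata1 had medians of 0.36 and 0.43, and the 10 HSC markers -0.88 and -0.59. In positive cells the mitochondrial share of molecules was lower, at a median of 3.44% against 3.93% in vehicle and 3.92% against 4.42% in DFO. The part these play in the members' differences was not tested.

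Within each class, DFO was compared with vehicle at the same thinned depth. In positive cells the intervals overlapped for all 9 genes. In the other cells Slc25a37 was higher in DFO by 0.18 and Hmox1 lower, at -0.46, both with separate intervals, and the other 7 overlapped. All molecules of the same cells gave more separate intervals. Among positive cells, Urod had 59.2 CPM (57.1 to 61.5) with vehicle against 51.8 (49.4 to 54.2) with DFO. Cpox had 44.3 CPM (42.5 to 46.3) against 39.6 (37.5 to 41.7). Among the other cells, Slc25a37 was higher and Urod, Ppox and Hmox1 were lower with DFO. Hmox1 there had 7.74 CPM against 5.98. The remaining pairs overlapped. The difference between the 2 classes in the response to DFO was not tested.

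The 9 genes were also followed across 8 clusters of the cells of both libraries. One was HSC-like (leading genes include Sult1a1, Procr and Ly6a), a pair were erythroid-like (Klf1 and Gata1 among the leading genes), 1 was megakaryocyte-like (Pf4, Treml1) and 1 neutrophil-monocyte-like (Mpo, Ctsg). The class genes Gata1 and Klf1 are on the erythroid list used for naming. In the smaller erythroid-like cluster they were the only listed erythroid markers among the top 10 genes. The others stayed unnamed: cluster 0 was led by mitosis genes such as Nusap1 and Ube2c, cluster 3 by genes such as Gm26532 and Cdkn3, and cluster 6 held shallow cells with a median of 6967 molecules. The megakaryocyte-like cluster made up 15.5% of vehicle and 9.80% of DFO cells, the larger erythroid-like cluster 16.5% and 14.1%, and the smaller 3.81% and 2.32%. The HSC-like cluster made up 20.7% and 19.3%.

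Cpox followed the lineage clusters. It was highest in megakaryocyte-like cells, at 45.5 CPM (43.8 to 47.3) in vehicle and 42.2 CPM (40.1 to 44.3) in DFO. The shallow cluster and the erythroid-like clusters came next, at 42.5, 37.6 and 37.0 CPM under vehicle and 37.0, 36.8 and 35.9 CPM under DFO, and these 3 overlapped one another. The shallow cluster in both libraries, and the smaller erythroid-like cluster in DFO, also overlapped the megakaryocyte-like one. Cluster 3 had 27.6 and 26.7 CPM, cluster 0 had 24.7 and 24.5 CPM, and HSC-like cells had 23.9 and 23.7 CPM, each overlapping the next in each library. The neutrophil-monocyte-like cluster was lowest, at 20.5 CPM (18.5 to 22.6) in vehicle and 23.0 CPM (21.3 to 24.7) in DFO, and it overlapped the HSC-like cells. In all 8 clusters the vehicle and DFO intervals for Cpox overlapped.

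Within the larger erythroid-like cluster, Cpox was at 45.8 CPM in positive and 36.9 CPM in other vehicle cells, and at 39.6 and 35.1 CPM under DFO. Within the megakaryocyte-like cluster it was at 49.1 and 42.8 CPM under vehicle and at 41.7 and 42.0 CPM under DFO. So cells of these clusters without a class molecule after thinning also had more Cpox than the 23.9 CPM of HSC-like vehicle cells. Such cells can still carry the class genes at full depth. Over all clusters, 16.1% of the other vehicle cells had a Gata1 molecule and 3.35% a Klf1 molecule when all molecules were counted.

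Hmox1 followed another order. It was highest in HSC-like cells, at 15.5 CPM (14.3 to 16.7) in vehicle and 9.94 CPM (9.03 to 10.9) in DFO, a difference of -0.59. Those intervals were separate, and no other cluster had separate intervals for Hmox1. Cluster 3 came second with 7.53 and 6.29 CPM, then cluster 0 with 6.22 and 5.53 CPM, and their intervals overlapped. The neutrophil-monocyte-like cluster had 5.69 and 4.74 CPM, the larger erythroid-like cluster 4.74 and 5.11 CPM, and the megakaryocyte-like cluster 4.65 and 4.31 CPM, all overlapping. The smaller erythroid-like cluster, at 3.62 and 2.19 CPM, and the shallow cluster, at 3.38 and 2.74 CPM, were lowest.

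The highest cell held part of the HSC-like value. The cell with most Hmox1 transcripts held 50 of the 660 molecules of that vehicle cluster, and without the highest cell of each library the levels were 14.3 CPM (13.2 to 15.5) and 9.65 CPM (8.75 to 10.6), a difference of -0.52. Cells of female and male origin, told apart by Xist and Y-linked transcripts, were both lower in DFO. Female HSC-like cells had 13.7 CPM under vehicle and 10.6 CPM under DFO, and male ones had 18.2 and 9.14 CPM. The vehicle cell with 50 molecules was female, so it holds 50 of the 314 molecules behind the female vehicle value. The female difference without that cell was not computed. Hmox1 was unevenly spread: the 88 vehicle cells with most molecules of it, 1% of the cells, held 22.6% of its molecules. In thinned cells its variance was 3.70 times its mean in vehicle and 1.27 times in DFO, and 1.97 and 1.18 times without the highest cell, which held 35 molecules in vehicle and 8 in DFO. For the other 8 genes the ratio lay between 0.97 and 1.09.

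**Figure D3:**
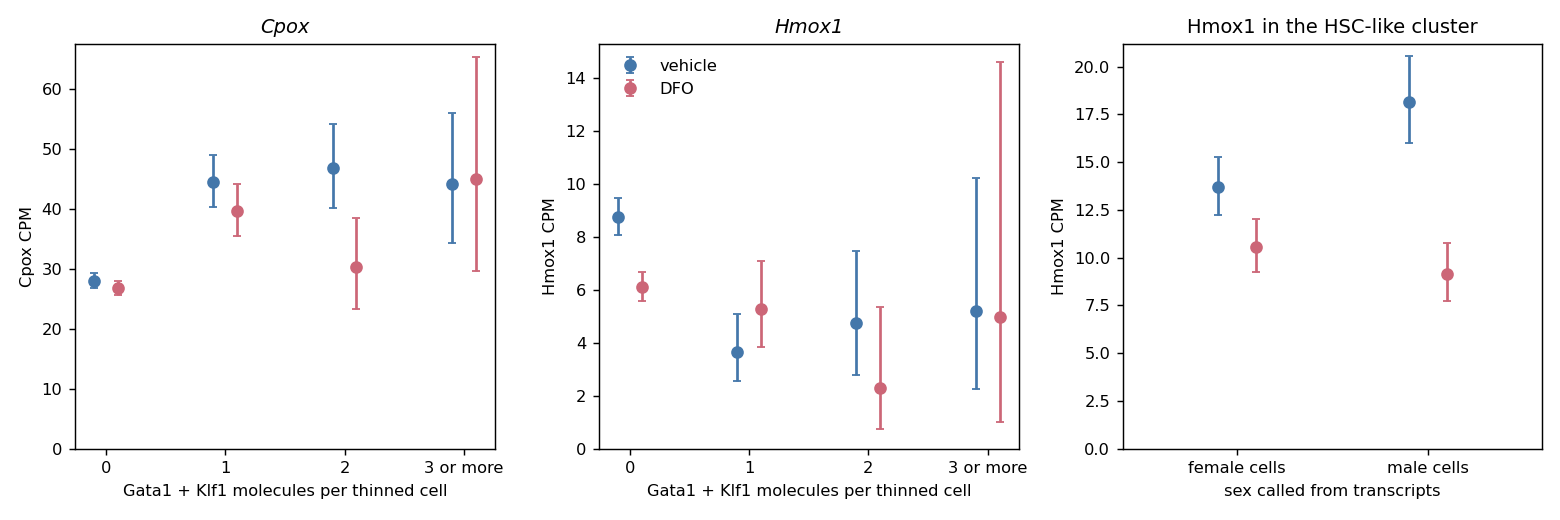
Left and middle, Cpox and Hmox1 level (CPM) in thinned cells with 0, 1, 2 or 3 or more molecules of Gata1 and Klf1 together; right, Hmox1 level in female and male cells of the HSC-like cluster, with 95% Poisson intervals and 1 library per colour. Cpox in vehicle steps from 28.0 to 44.6 CPM between 0 and 1 molecule, and Hmox1 in HSC-like cells is lower in DFO in cells of both sexes. The vehicle cell with most Hmox1 molecules is among the female cells.

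Urod was highest in the smaller erythroid-like cluster, at 65.3 CPM (60.3 to 70.6) in vehicle and 67.0 CPM (60.8 to 73.7) in DFO, and lowest in the shallow cluster, at 13.5 and 10.7 CPM. Its lower level in DFO was seen with separate intervals in 4 of 8 clusters. In the larger erythroid-like cluster it was 60.1 CPM (57.6 to 62.6) in vehicle and 52.8 CPM (50.5 to 55.1) in DFO. In neutrophil-monocyte-like cells it was 50.1 CPM (47.1 to 53.4) and 43.1 CPM (40.8 to 45.5). HSC-like cells had 48.6 and 49.2 CPM, which overlapped.

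Ppox was lower in DFO in 7 of 8 clusters, with separate intervals in 1. In the larger erythroid-like cluster it was 9.48 CPM (8.53 to 10.5) in vehicle and 6.63 CPM (5.84 to 7.50) in DFO, a difference of -0.46. The megakaryocyte-like cluster went the other way, at 8.47 and 9.11 CPM with overlapping intervals.

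Slc25a37 was higher in DFO in 7 of 8 clusters. The intervals were separate in cluster 3, at 16.9 CPM (15.3 to 18.7) and 21.1 CPM (19.7 to 22.7), and in megakaryocyte-like cells, at 17.0 CPM (16.0 to 18.1) and 19.7 CPM (18.2 to 21.2). In the remaining cluster, the neutrophil-monocyte-like one, both libraries stood at 24.96 CPM. The gene was lowest in the smaller erythroid-like cluster, at 13.6 and 15.3 CPM, and highest in the shallow cluster, at 33.8 and 34.2 CPM. HSC-like cells had 24.6 and 25.8 CPM. The larger erythroid-like cluster had 20.2 and 22.6 CPM. The lowest value in vehicle, 13.6 CPM (11.3 to 16.1), overlapped cluster 3 and the megakaryocyte-like cluster.

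For Slc25a28, Alas1, Uros and Fech, the vehicle and DFO intervals overlapped in all 8 clusters. Slc25a28 ran from 14.6 CPM in megakaryocyte-like to 27.3 CPM in shallow vehicle cells. Alas1 lay between 9.21 and 11.1 CPM in 7 vehicle clusters and at 4.83 CPM in the shallow one. Fech ran from 14.3 CPM in neutrophil-monocyte-like to 23.7 CPM in shallow vehicle cells.

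**Figure D4:**
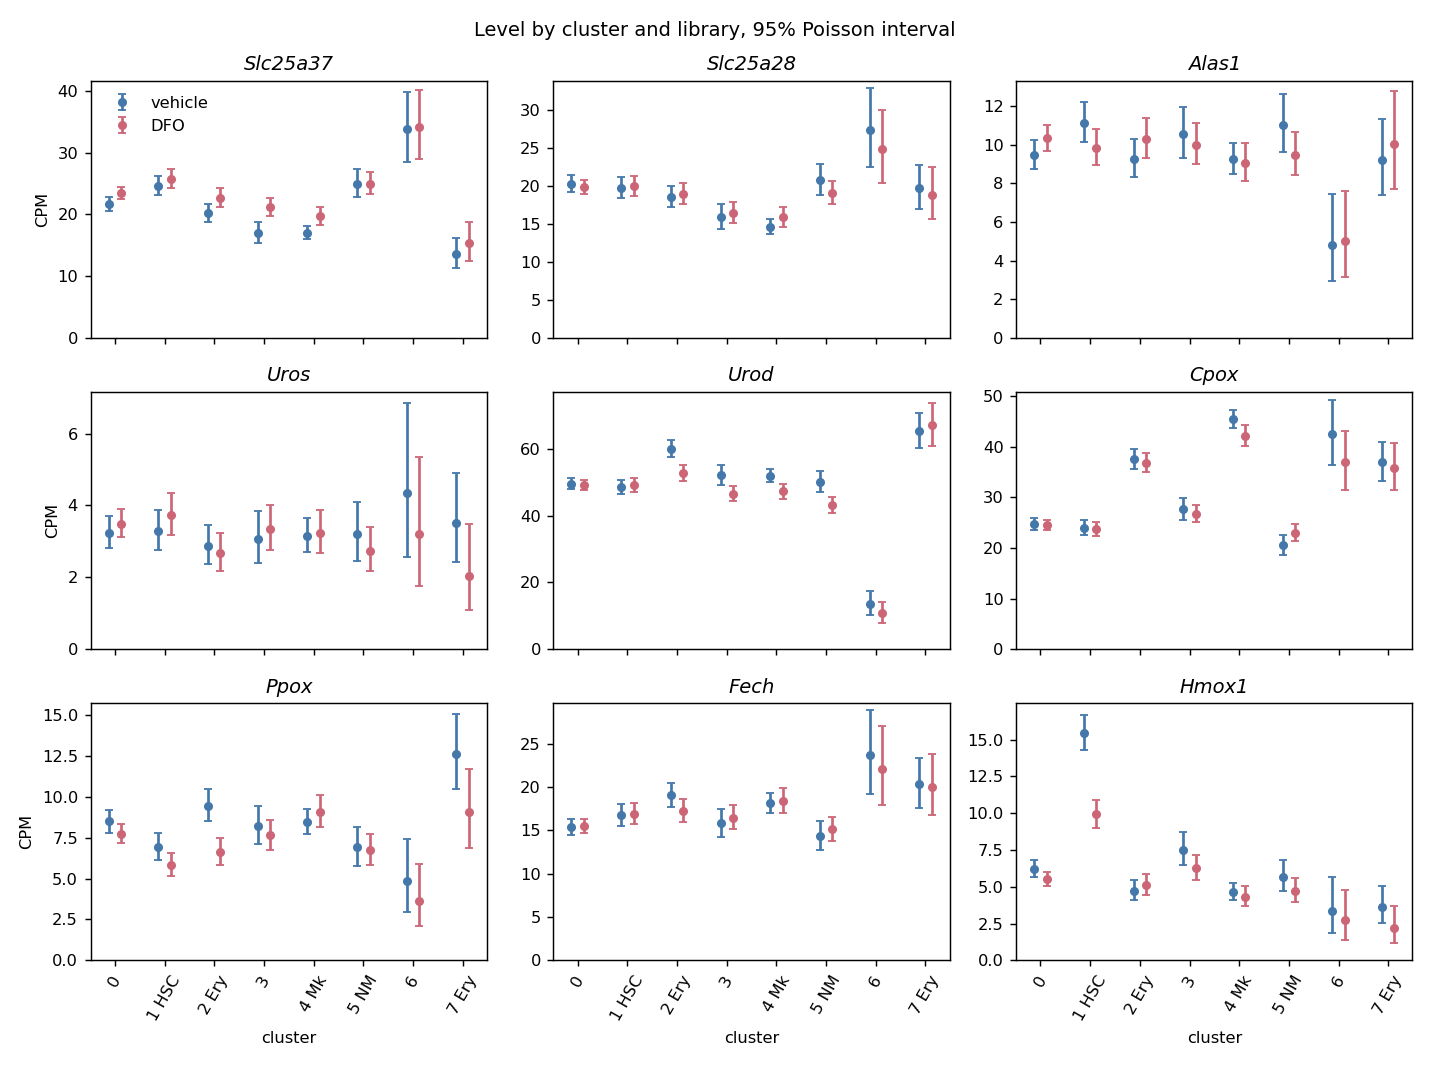
Level (CPM, linear axis from 0) of each gene in 8 clusters of vehicle (blue) and DFO (red) cells, with exact 95% Poisson intervals; Ery is erythroid-like, Mk megakaryocyte-like and NM neutrophil-monocyte-like, and cluster 6 holds the shallow cells. Cpox is highest in the Mk cluster at 45.5 and 42.2 CPM, and Hmox1 is highest in the HSC cluster at 15.5 and 9.94 CPM.

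The genes with the most similar pattern were sought among 5487 others, by the correlation of log2 levels over 16 points (8 clusters in each of the 2 libraries). The points share libraries and include the shallow cluster, so values over the 14 points without it are given too. Cpox was most like Slc14a1, with r = 0.983, and 0.981 without the shallow cluster. Hmox1 was most like Avpi1 (0.894, then 0.872) and Guca1a (0.887, then 0.902). Slc25a37 was nearest to Colgalt1 (0.956, then 0.935) and Prkar2a (0.949, then 0.920), and Slc25a28 to Zeb1 (0.944, then 0.914) and Uri1 (0.938, then 0.902). Fech was nearest to March2 (0.978, then 0.976) and Skil (0.960, then 0.934), and Ppox to Tax1bp1 (0.930, then 0.850) and Nsdhl (0.929, then 0.832).

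The shallow cluster carried much of the likeness for Alas1 and some for Urod. Alas1 was nearest to Mrpl4 and Adh5, at 0.979 and 0.978, but only 0.645 and 0.626 without that cluster. Urod was nearest to Taldo1 and Lrpap1, at 0.992 and 0.991, then 0.879 and 0.830. Uros, the gene with fewest molecules, reached 0.797 with Cabin1 and 0.771 with Stau1, then 0.789 and 0.722. Among the 9 genes, Cpox and Fech had r = 0.80, and 0.82 without the shallow cluster. Slc25a37 and Ppox had -0.91, then -0.85. Alas1 and Urod had 0.92, then -0.17, so that pair's likeness came from the shallow cluster.

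Alad, the synthesis enzyme that joins aminolevulinate molecules, was read beside the 9. It was at 45.7 CPM with vehicle and 42.0 CPM with DFO, a difference of -0.12. In positive cells it was at 49.3 CPM against 46.2 CPM in other vehicle cells, and at 48.7 against 41.3 CPM in DFO. Those differences of 0.09 and 0.23 were under the size rule in both libraries.

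Of 21 other genes of heme synthesis, transport and degradation, 19 were in the tables, all at 5 CPM or more. With DFO, 1 of 19 was lower by the size rule and 0 were higher, and the median was -0.03. The lower one was Blvrb, a biliverdin reductase, at 60.6 CPM under vehicle and 48.9 CPM under DFO. Its difference was -0.30, and with equal cluster shares it was -0.18, which is under the size rule. Next lowest was Abcb6, a porphyrin transporter, at 7.94 and 7.20 CPM. The highest differences were those of Flvcr1, a heme exporter, at 5.94 and 7.12 CPM, and Hmox2, the constitutive heme oxygenase, at 114.9 and 124.0 CPM.

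Between the classes, 3 of the 19 were higher in positive cells in both libraries and 1 was lower, with medians of 0.09 in vehicle and 0.12 in DFO. The higher ones included Slc25a38 (the mitochondrial glycine carrier), at 9.33 against 6.22 and 7.93 against 6.29 CPM, and Blvrb, at 94.4 against 55.0 and 69.3 against 46.8 CPM. The lower one was Hebp1, a heme-binding protein, at 8.66 against 11.2 and 9.01 against 11.2 CPM. Hmox2, as Hmox1, was lower in positive cells, by 0.25 or more in vehicle only, at 94.7 against 123.5 CPM, and 106.8 against 126.6 CPM under DFO.

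Hmox1 belongs to a set of genes held down by BACH1 and raised by NRF2. Of 14 genes on a list of such targets and their regulators, 12 reached 5 CPM, 0 shifted with DFO, and the median was 0.05. The highest differences were those of Prdx1, a peroxidase, at 1094 and 1215 CPM, and Nqo1, a quinone reductase, at 12.4 and 13.7 CPM. The lowest were those of Bach1 itself, at 17.8 and 16.2 CPM, and of the ferritin heavy chain gene Fth1, at 3261 and 3246 CPM.

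In GENCODE M21 (GRCm38), the gene Cpox spans chr16:58670292-58717636, Ppox chr1:171275990-171281186, Urod chr4:116989965-116994413 and Uros chr7:133686243-133710072. Slc25a37 spans chr14:69241848-69285112, Slc25a28 chr19:43663801-43674881, Alas1 chr9:106233455-106248654 and Hmox1 chr8:75093621-75100589. All are protein-coding, Cpox and Hmox1 on the plus strand and the other 6 on the minus strand. Slc25a37 overlaps Gm20236 on its own strand. Slc25a37, Alas1, Uros, Cpox and Ppox overlap a gene on the opposite strand, for example Bccip for Uros and B4galt3 for Ppox. The sources used here do not say how reads in such overlaps were assigned, and the levels of these 5 genes are uncertain to that extent.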

How the data were processed

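Single-cell RNA libraries (10x Genomics) were made from 1 vehicle and 1 DFO culture. The authors' deposited tables hold natural log values per gene symbol and cell barcode. After undoing the log, a cell's values add up to 27408 or less, and all 44114455 and 49560434 nonzero values were whole multiples of the cell's smallest step within 0.05, so molecules were recovered and used as counts for sums only. The submitters' processing notes name FastQC 0.11.9, Trim Galore 0.6.5, Cell Ranger 3.0.2 and the build mm10. Annotation and any filter on cells: not given in the sources used here.

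All deposited cells were used, and 24 barcodes occur in both libraries. No doublet caller was run, and leaving out the 8% of cells with most molecules, or cells with transcripts of both sexes, served as alternatives. Molecules were summed over cells and scaled to CPM, and differences are log2(CPM + 1). For the classes, cells were thinned to 10000 molecules, and 351 vehicle and 433 DFO cells below that were left out. Clusters came from 2000 variable genes, 30 principal components, 15 neighbours and Leiden resolution 0.5, with Python 3.11.15, scanpy 1.11.5, leidenalg 0.10.2, numpy 2.4.6 and scipy 1.17.1. A cluster was named from marker lists when 3 or more markers were detected and at least 1 was among its top 10 genes. The thinning and the differences were tested on simulated data.

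The members, lists and comparisons were chosen with earlier results of these data known. The text names all 9 members, the class genes Gata1 and Klf1, Alad, the 2 highest and 2 lowest of a further list by the difference in question, the 2 genes most like each member, and genes leading a cluster. The erythroid markers were named after their values were seen. A few genes that this rule would name are not reported here.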

Additional observations from a re-analysis of the deposited data

How the results depend on the processing

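The differences of the 9 members were computed again under other settings. With DFO, 0 of 9 genes were past 0.25, but 1 (Hmox1) was past it with library scaling by median ratio, the mean of each cell's CPM, cells thinned to 10000 molecules, equal cluster shares, equal shares of positive cells, without the cells with most molecules, and in male cells. It was 0 with a pseudocount of 10, a stricter cell filter, female cells, without cells of both sexes and without each gene's highest cell. Between the classes, 3 genes were past 0.25 in both libraries. The count was 1 (Cpox) without thinning, with a pseudocount of 10 and with levels from all molecules, and 0 with equal cluster shares. Another random draw and male cells gave 2 (Cpox and Hmox1). The count was 4 (Urod, Cpox, Ppox and Hmox1) when Klf1 alone set the class. The same 4 passed when cells with both genes were set against cells with neither, though only 112 vehicle and 55 DFO cells had both. Those 55 DFO cells held 0 molecules of Hmox1 and 6 of Ppox. In the same setting Alas1 differed by -1.01 in vehicle and by 0.85 in DFO, so these values are unsteady. Female cells also gave 4 (Slc25a37, Cpox, Ppox and Hmox1). With at least 2 class molecules the 3 genes were Urod, Ppox and Hmox1, and at 5000 molecules Slc25a37, Urod and Cpox. At 5000 molecules the sign turned in DFO for Ppox, to -0.31, and for Hmox1, to 0.002; the cause was not tested. The highest-cell, random-draw and all-molecule settings were chosen after seeing the data. No paired analysis was possible because each group has 1 library. Depth limits Uros most, with 831 and 924 molecules in all. Leaving out a replicate was not possible with 1 library per group.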

Other observations

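The beta globin gene Hbb-bt did not follow the erythroid-like clusters. It stood at 942.8 CPM in HSC-like vehicle cells and 825.6 CPM in HSC-like DFO cells, and at 110.8 and 123.8 CPM in megakaryocyte-like cells. The larger erythroid-like cluster had 329.1 and 291.1 CPM. The source of the Hbb-bt molecules was not tested.

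Gclm, a subunit of the enzyme that starts glutathione synthesis, was the one gene of the BACH1 and NRF2 list that was higher in positive cells by 0.25 or more in both libraries. It stood at 417.1 CPM in positive and 328.1 CPM in other vehicle cells, and at 423.6 and 350.4 CPM in DFO.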
